A study of Homo sapiens with 6 samples.

Results

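The cytosolic ribosomal protein genes are the protein-coding genes whose products, with ribosomal RNA, build the ribosomes of the cytoplasm. They were chosen by gene symbol alone (RPL, RPS and RPLP followed by their numbers, and RPSA), without ribosomal S6 kinases. The rule took 84 of the 26704 genes in the deposited tables, of which 15778 are protein-coding. Of the 84, 43 encode core proteins of the large subunit, 31 core proteins of the small subunit, 3 the stalk of the large subunit, and 7 are paralogs of core proteins. FAU and RACK1, which encode ribosomal proteins under other names, fell outside the rule.

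Poly-A selected RNA was sequenced from SKM-1, an established human acute myeloid leukaemia cell line that arose after a myelodysplastic syndrome. The groups were cells given BOR (2 libraries, BOR 1 and BOR 2), cells given VEM (1 library), cells given VEM with BOR (VEM+BOR, 1 library) and untreated cells (2 libraries). VEM is vemurafenib, an inhibitor of RAF kinases, as the series title gives it, and the labels do not spell out BOR. No dose, time or vehicle is given in the sources used here, nor do the labels say whether the 2 libraries of a group were separate cultures. All p-values therefore measure only how these few libraries spread, a spread that may be technical. Every comparison shares the same 2 untreated libraries.

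A ribosome has a small subunit, which reads the mRNA, and a large subunit, which joins amino acids and carries a flexible stalk that recruits elongation factors. Core ribosomal proteins are needed in equal numbers, and their mRNAs are among the most abundant of growing cells. Most of these mRNAs begin with a C followed by a run of pyrimidines, the terminal oligopyrimidine (TOP) motif, through which mTORC1 and LARP1 control their translation and stability. In blood, loss of 1 copy of several of these genes causes Diamond-Blackfan anaemia, and RPS14 lies in the region of chromosome 5 that is lost in the 5q- syndrome of myelodysplasia.

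Start windows of members with different roles are shown because the run at the start is the sequence feature by which these mRNAs are regulated together. Each window holds 15 bases before the RefSeq start and the first 15 bases of the transcript, 5′ to 3′ on the gene's strand in GRCh38.p14. Capitals mark the pyrimidine run from the base at which the search matched it. The first set has the match exactly at the start, whatever bases come before it. RPLP0, RPLP1 and RPLP2 encode the stalk, RPS6 the protein phosphorylated by S6 kinases, RPSA the laminin receptor protein of the small subunit, and RPL22L1 a paralog of RPL22.
RPLP0, chr12:120201097-120201126, minus strand: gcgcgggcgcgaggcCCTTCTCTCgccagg
RPLP1, chr15:69452803-69452832, plus strand: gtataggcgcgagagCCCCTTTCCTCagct
RPLP2, chr11:809952-809981, plus strand: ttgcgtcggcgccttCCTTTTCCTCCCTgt
RPS6, chr9:19380222-19380251, minus strand: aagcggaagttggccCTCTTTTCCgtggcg
RPSA, chr3:39406705-39406734, plus strand: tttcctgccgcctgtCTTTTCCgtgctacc
RPS14, chr5:150449725-150449754, minus strand: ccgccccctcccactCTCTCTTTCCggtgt
RPS19, chr19:41860240-41860269, plus strand: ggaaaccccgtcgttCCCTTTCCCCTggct
RPL13A, chr19:49487593-49487622, plus strand: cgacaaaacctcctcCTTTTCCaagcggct
RPL14, chr3:40457324-40457353, plus strand: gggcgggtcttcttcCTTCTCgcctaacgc
RPS10, chr6:34426055-34426084, minus strand: ccgcgcatgctccttCCTTTCCagccccgg
RPL22L1, chr3:170870181-170870210, minus strand: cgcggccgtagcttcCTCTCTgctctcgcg
The second set has a match that begins within 5 bases of the annotated start. In RPL36AL the pyrimidines before the capitals belong to the same run, which thus begins further upstream.
RPL11, chr1:23691764-23691793, plus strand: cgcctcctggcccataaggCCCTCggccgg
RPL3, chr22:39319609-39319638, minus strand: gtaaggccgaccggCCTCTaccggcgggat
RPL36AL, chr14:49620612-49620641, minus strand: ctgtttcttcCCTTTCCTgttaggcgagag
The third set has no such run near the annotated start.
RPS29, chr14:49598696-49598725, minus strand: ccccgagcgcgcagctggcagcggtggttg
RPL7L1, chr6:42879601-42879630, plus strand: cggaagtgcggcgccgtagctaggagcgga
RPL26L1, chr5:172958714-172958743, plus strand: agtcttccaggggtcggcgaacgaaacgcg

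The motif searched was a C followed by at least 4 bases that are C or T, on the gene's strand only. Of the 84 members, 67 matched a promoter in the RefSeq table, and 43 of these (64.2%) had the run exactly at the start, against 4.04% of 27305 RefSeq promoters. Counting matches that begin within 5 bases of the start, whatever bases come before them, 52 of 67 members (77.6%) had one, against 21.1% of all promoters. The exact start was held by 42 of 62 core members and by 1 of 5 paralogs, RPL22L1. Mitochondrial ribosomal protein genes, which serve another ribosome, had it in 5 of 69 promoters (7.25%). These matches describe the letters in the window and are not measured start sites.

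Depth was even, with 17252404 to 18507606 reads per library. Markers of myeloid cells (MPO, CD33, SPI1, CEBPA, ANPEP) were present in every library, while KIT, also on the myeloid list, and CD3E, CD3D, CD2, MS4A1, CDH1 and DCN were at 0 in every library. The highest marker of another cell type was COL1A1, at most 8.81 CPM. BOR 2 stood apart. PTPRC, the leukocyte phosphatase CD45, was at 10.8 CPM (reads scaled to an equal library total) in BOR 2, against 175 to 272 CPM in the other 5 libraries. MALAT1, a nuclear non-coding RNA, was at 8.27 CPM in BOR 2, against 48.5 to 87.5 CPM in the others. Mitochondrial transcripts took 3.14% of the reads of BOR 2, against 4.23% to 5.40% in the others. BOR levels are therefore given for each library, and the counts and medians of gene groups also for each BOR library alone.

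Ribosomal protein transcripts took 6.66% of reads in BOR 1, 11.8% in BOR 2, 7.57% in VEM, 6.58% in VEM+BOR, 7.54% in untreated 1 and 9.35% in untreated 2. BOR 2 was the highest library, and BOR 1 and VEM+BOR lay below both untreated libraries. VEM lay between the untreated libraries, close to untreated 1. The mean of the treated libraries was 1.09 times the untreated mean for BOR, 0.896 times for VEM and 0.780 times for VEM+BOR. With so few libraries an exact permutation test over libraries cannot reach the threshold of 0.05, so these shares are given as a description. In RNA from a whole culture, fewer cells of a kind and less of an RNA per cell cannot be told apart.

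**Figure D1:**
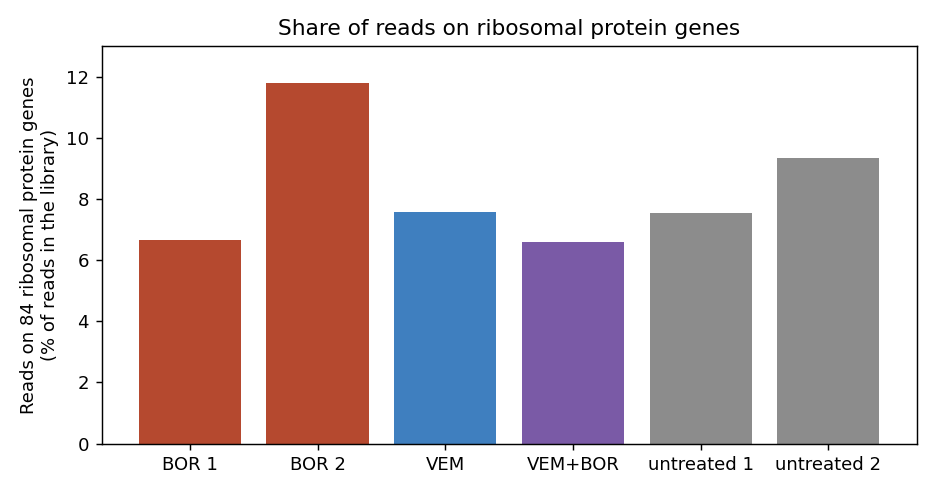
Bars give the percentage of each library's reads that fell on the 84 ribosomal protein genes, 1 bar per library, starting at 0. BOR 2 is highest at 11.8%, VEM+BOR and BOR 1 are lowest at 6.58% and 6.66%, and the untreated libraries are at 7.54% and 9.35%.

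The untreated libraries themselves differed in these genes. With the libraries brought to 1 scale, 83 of 84 members were higher in untreated 2 than in untreated 1, with a median log2 difference of 0.51 (range -0.17 to 0.86), while the median over all genes was 0.01. RPL3L, the muscle paralog of RPL3, was the exception. RPL35, a large subunit protein, was at 14101 in VEM+BOR, 15830 in VEM, 13712 in untreated 1 and 24840 in untreated 2, in normalised read counts. RPS27, a small subunit protein, was at 19344 in VEM+BOR, 20380 in VEM, 20616 in untreated 1 and 21941 in untreated 2. The pair thus differed widely for RPL35 and little for RPS27. VEM lay nearer to untreated 1 than to untreated 2 on the log2 scale in 82 of 84 members, as did BOR 1 and VEM+BOR in 81 each and BOR 2 in 5.

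**Figure D2:**
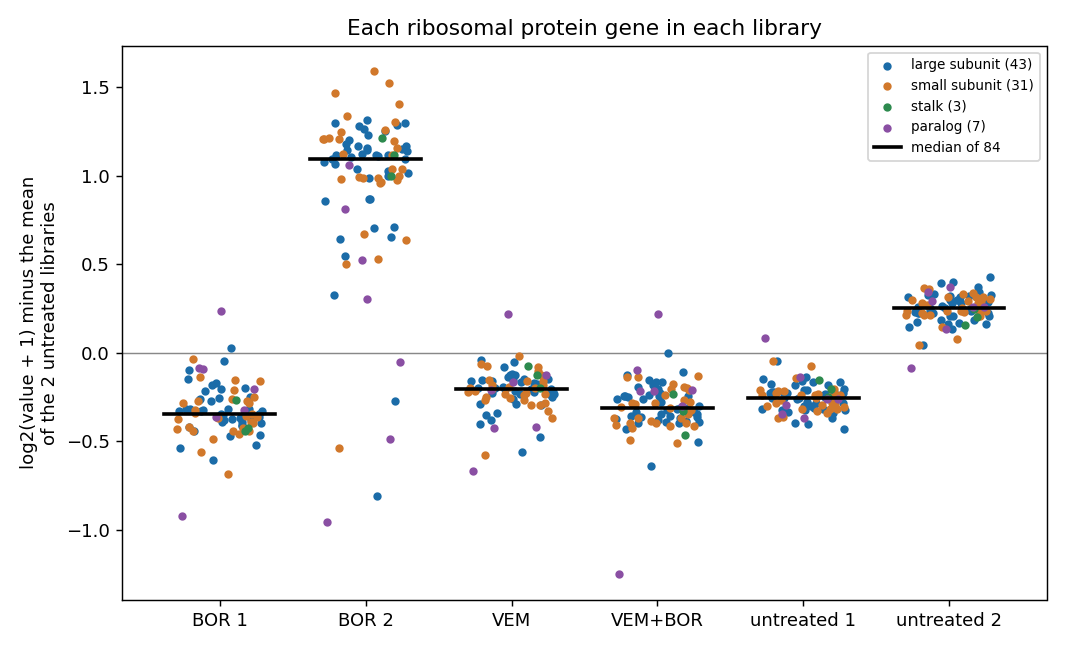
Each point is 1 of the 84 genes, coloured by role, and the vertical axis is its log2(value + 1) in a library minus the mean of the 2 untreated libraries; black bars are medians. The points of BOR 2 centre on 1.10, those of BOR 1, VEM and VEM+BOR lie mostly below 0, and the untreated libraries lie apart from each other by a median of 0.51.

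Cells given BOR were compared with untreated cells. Levels are given as the deposited normalised read counts, in which each table sets its own scale, so untreated values differ slightly between comparisons. RPL8, a core protein of the large subunit, had 39925 and 113464 in BOR libraries, against 43685 and 62512 in untreated libraries. RPS6 had 33549 and 79630 in BOR libraries, against 31757 and 49835 in untreated libraries. The stalk protein RPLP1 had 16948 and 47236 in BOR libraries, against 18165 and 22767 in untreated libraries. In all 3 genes BOR 2 was the highest library and BOR 1 lay close to untreated 1, so the groups overlapped.

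No member passed the test for BOR (0 of 84, by limma on log2(value + 1), adjusted p under 0.05), where 0% of all 15382 genes tested passed and 38 had an unadjusted p under 0.05. Of the members, 0 had an unadjusted p under 0.05 by limma. On recovered reads edgeR called 0 members, where 0 of 15799 genes passed, and DESeq2 called 0, where 35 of 15517 passed. The lowest limma adjusted p of a member was 0.968. The authors' deposited table also held 0 members with an adjusted p under 0.05, where 18 of all genes had one. The median log2 change of the members was 0.38, with a median standard error (SE) of 0.63, while all genes had a median of 0.04 and the untreated pair differed by a median of 0.52. Both BOR libraries lay above both untreated libraries in 0 members, against 11.7% of all genes, and below both in 2 members (2 of 84), against 8.24% of all genes. The distance of the BOR mean from the untreated mean was larger than that between the untreated libraries in 12 members, against 52.7% of all genes. For BOR 1 alone this held in 13 members, against 29.8% of all genes, and for BOR 2 alone in 76 members, against 72.8%.

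The 2 members below were both paralogs. RPL36AL, a near copy of RPL36A, had 2705 and 2417 in BOR libraries, against 2805 and 4070 in untreated libraries (log2 change -0.40, SE 0.45, limma adjusted p = 0.968). RPL3L had 8.06 and 7.84 in BOR libraries, against 17.0 and 15.2 in untreated libraries (log2 change -0.93, SE 0.75, limma adjusted p = 0.968). Those RPL3L values come from 9 and 6 reads in BOR libraries and 20 and 16 reads in untreated libraries. RPL3L passed the filter (a mean of at least 10) only through the untreated libraries, so its place below them is no support for a change.

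The median of the members turned round with the BOR library used. BOR 2 alone had a median log2 change of 1.10, with 77 members above both untreated libraries, 4 below both and 3 between. Over all genes, BOR 2 lay above both in 44.2% and below both in 41.5%. BOR 1 alone had a median of -0.34, with 0 members above both, 55 below both and 29 between, against 30.4% of all genes above and 20.1% below. Without BOR 1, limma called 2 members. RPS15A had a log2 change of 1.41 (SE 0.41, limma adjusted p = 0.0307) and RPS29 one of 1.59 (SE 0.42, limma adjusted p = 0.0203), both of the small subunit. In that setting 4008 of 15371 genes passed. Without BOR 2, limma called 0 members.

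RPS29 had 3027 and 14653 in BOR libraries, against 4582 and 5149 in untreated libraries. RPS15A had 2564 and 8927 in BOR libraries, against 2844 and 3989 in untreated libraries. Each was lowest of the 4 libraries in BOR 1 and highest in BOR 2. PTPRC, MALAT1 and mitochondrial transcripts moved with BOR 2 as given above, and their part in its ribosomal protein levels was not tested.

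The VEM library was set against the untreated pair, which addresses the RAF inhibitor alone. RPL8 had 51851 in VEM, against 48940 and 69972 in untreated libraries. RPS6 had 36425 in VEM, against 35578 and 55782 in untreated libraries. RPLP1 had 21495 in VEM, against 20350 and 25484 in untreated libraries. All 3 lay between the untreated libraries, just above untreated 1.

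No member passed the limma test for VEM (0 of 84), where 0.0446% of 15689 genes passed. An unadjusted p under 0.05 was found in 0 members, against 399 of all genes (2.54%). The lowest limma adjusted p of a member was 0.999995. The authors' deposited table had 0 members with an adjusted p under 0.05, where 16 of all genes had one. The median log2 change was -0.21, against 0.00 for all genes, with a median SE of 0.51. VEM lay below both untreated libraries in 22 members (26.2%), against 27.6% of all genes, and above both in 1 member, against 30.3% of all genes. The distance from the untreated mean was larger than that between the untreated libraries in 3 members (RPL3L, RPL26 and RPS10), against 34.6% of all genes. Against untreated 1 alone the median was 0.05, and against untreated 2 alone it was -0.47.

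Members below both untreated libraries included 2 with low values. RPS10, a small subunit protein, had 29.7 in VEM, against 38.1 and 53.2 in untreated libraries (log2 change -0.58, SE 0.72, limma adjusted p = 1). RPL36A, of the large subunit, had 197 in VEM, against 234 and 365 in untreated libraries (log2 change -0.56, SE 0.46). The abundant RPL14 had 15011 in VEM, against 16130 and 27177 in untreated libraries (log2 change -0.48, SE 0.55). The 1 member above both was RPL39L, a paralog of RPL39 known from testis, with 725 in VEM, against 566 and 692 in untreated libraries (log2 change 0.21, SE 0.38). For RPS10, RPL14 and RPL39L the SE was larger than the change.

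VEM+BOR held the lowest share of reads on these genes. RPL13A, a large subunit protein, had 18982 in VEM+BOR, against 24808 and 35975 in untreated libraries (log2 change -0.65, SE 0.58, limma adjusted p = 1). RPS2, of the small subunit, had 36664 in VEM+BOR, against 42717 and 64785 in untreated libraries (log2 change -0.52, SE 0.70). RPL3, which lies at the centre where amino acids are joined, had 28535 in VEM+BOR, against 35316 and 47297 in untreated libraries (log2 change -0.52, SE 0.64). VEM+BOR was below both untreated libraries in each of them.

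All 3 stalk genes were also below both untreated libraries in VEM+BOR. RPLP0 had 20429 in VEM+BOR, against 24660 and 32869 in untreated libraries, and RPLP2 had 12766, against 13583 and 19338. RPLP1 had 19240 in VEM+BOR, against 20439 and 25511 in untreated libraries. RPL7L1, a paralog of RPL7 that acts in ribosome assembly, had the highest log2 change of the members at 0.21 (SE 0.46), with 8782 in VEM+BOR, against 5867 and 9868 in untreated libraries.

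Again limma called 0 of 84 members for VEM+BOR, where 0.192% of 15606 genes passed. An unadjusted p under 0.05 was found for 0 members, against 469 of all genes (3.01%). On recovered reads edgeR called 0 members, where 90 of 16756 genes passed, and DESeq2 called 0, where 64 of 15658 passed. The authors' deposited table had 0 members with an adjusted p under 0.05, where 60 of all genes had one. The median log2 change was -0.32, against 0.01 for all genes, with a median SE of 0.51. VEM+BOR lay below both untreated libraries in 59 of 84 members (70.2%), against 27.9% of all genes, and above both in 0, against 30.1%. The distance from the untreated mean was larger than that between the untreated libraries in 10 members, against 37.2% of all genes. Against untreated 1 alone the median was -0.06, and against untreated 2 alone it was -0.58.

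**Figure D3:**
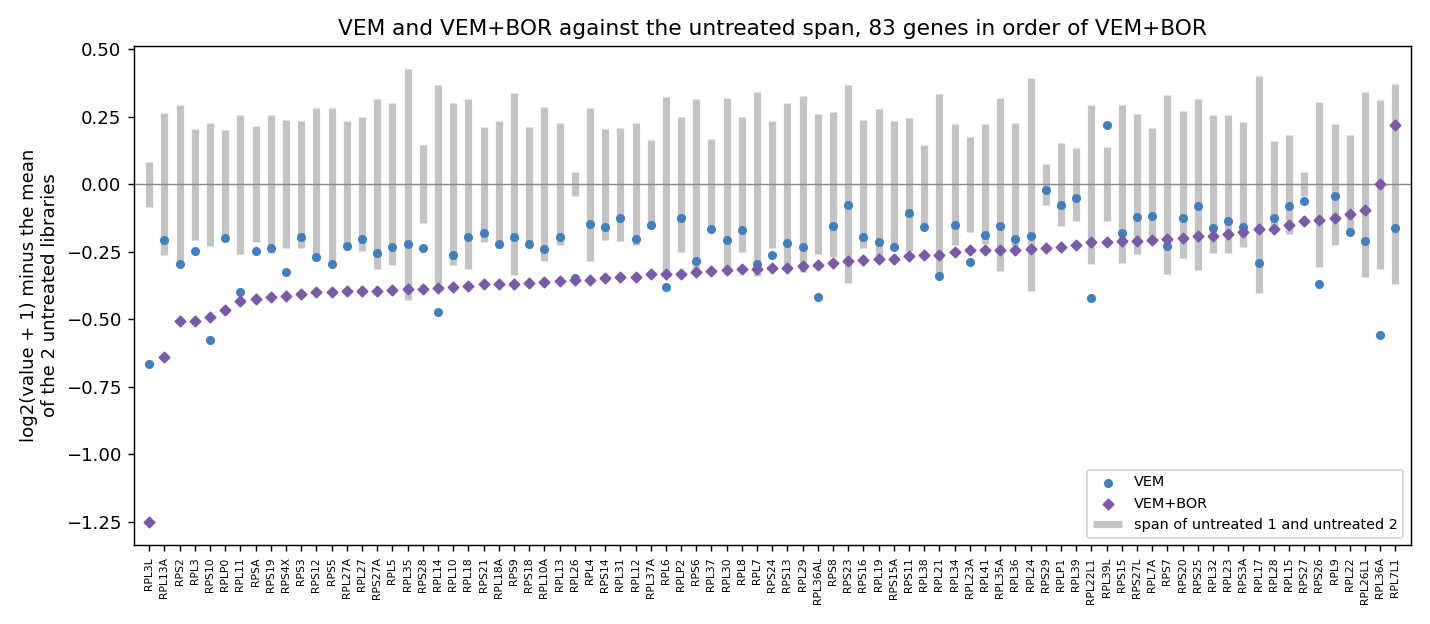
Grey bars span the 2 untreated libraries for each of 83 of the 84 genes, circles are VEM and diamonds VEM+BOR, and the vertical axis is log2(value + 1) minus the untreated mean on 1 scale. Genes run in order of VEM+BOR, from RPL3L to RPL7L1, and most diamonds lie at or just under the lower end of the grey bar.

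VEM and VEM+BOR were also tested as 1 group against the untreated libraries on 1 scale. Here too limma called 0 of 84 members, where 0.22% of 15442 genes passed. The unadjusted p was under 0.05 in 0 members, against 965 of all genes (6.25%). The median log2 change was -0.26, against 0.01 for all genes, with a median SE of 0.26. Both libraries lay below both untreated libraries in 18 members (21.4%), against 14.4% of all genes, and above both in 0, against 19.4%. The distance between the means was larger than that between the untreated libraries in 5 members (RPL3L, RPL26, RPS10, RPS27 and RPS28), against 32.4% of all genes.

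RPL11, which with RPL5 binds MDM2 when ribosome assembly fails, was below in both libraries, with 11546 in VEM and 11300 in VEM+BOR, against 12748 and 18223 in untreated libraries (log2 change -0.42, SE 0.25, limma adjusted p = 0.933). RPL14 had 13780 in VEM and 14645 in VEM+BOR, against 14816 and 24702 in untreated libraries (log2 change -0.43, SE 0.29, limma adjusted p = 0.961). RPL5 had 15569 in VEM and 13948 in VEM+BOR, against 14867 and 22527 in untreated libraries, so its groups overlapped. Without untreated 1, the median log2 change was -0.52. The members that passed limma there, RPL11, RPL14, RPL35 and RPL6, had log2 changes of -0.80 to -0.67 against untreated 2 alone. With 1 untreated library left, the spread came only from VEM against VEM+BOR, which are different treatments. Passing in that fit therefore decides nothing. Without untreated 2, the median log2 change was -0.0004.

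Between the libraries themselves, VEM+BOR was lower than VEM in 69 of 84 members, with a median log2 difference of -0.10 (range -0.58 to 0.56), while over all genes 44.9% were lower and the median was 0.05. With 1 library each, this difference has no replicate check. RPLP0 had 18789 in VEM+BOR, against 22584 in VEM, and RPL13A had 17458 in VEM+BOR, against 23619 in VEM. RPL7L1 went the other way, with 8077 in VEM+BOR, against 6194 in VEM.

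The 20 members of a list for Diamond-Blackfan anaemia and the 5q- syndrome had median log2 changes of 0.32 for BOR, -0.23 for VEM and -0.36 for VEM+BOR, beside 0.38, -0.21 and -0.32 for all 84. In BOR 1 alone the median of the list was -0.38, and in BOR 2 alone it was 1.01. By limma 0 of 20 passed in each, and 0 had an unadjusted p under 0.05. RPS19, the gene most often affected in that anaemia, had 10173 and 27357 in BOR libraries, against 11484 and 16553 in untreated libraries (log2 change 0.27, SE 0.62). It had 13032 in VEM, against 12866 and 18529 in untreated libraries, and 11497 in VEM+BOR, against 12922 and 18548. RPS14 had 18224 and 53277 in BOR libraries, against 20585 and 27663 in untreated libraries (log2 change 0.38, SE 0.66). It had 23833 in VEM, against 23061 and 30964 in untreated libraries, and 20858 in VEM+BOR, against 23161 and 30997. Both genes had BOR 2 highest, VEM between the untreated libraries and VEM+BOR under both.

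Other core members had BOR 2 highest as well. RPSA had 25577 and 76715 in BOR libraries, against 27591 and 37636 in untreated libraries. It had 30266 in VEM, against 30910 and 42127 in untreated libraries, and 26666 in VEM+BOR, against 31045 and 42171. BOR 1, VEM and VEM+BOR were thus all below both untreated libraries for RPSA, and BOR 2 was above both. RPS4X, the X-linked small subunit protein, had 15870 and 41829 in BOR libraries, against 17157 and 24137 in untreated libraries. It had 18089 in VEM, against 19221 and 27017 in untreated libraries, and 16987 in VEM+BOR, against 19305 and 27045. RPS4X too was below both untreated libraries in BOR 1, VEM and VEM+BOR.

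RPL10, a large subunit protein that is altered in some T-cell leukaemias, had 21240 and 68284 in BOR libraries, against 22110 and 33923 in untreated libraries. It had 25458 in VEM, against 24770 and 37971 in untreated libraries, and 23385 in VEM+BOR, against 24877 and 38011. RPL10 thus lay between the untreated libraries in VEM and below both in VEM+BOR. The large subunit gene RPL19 had 24076 and 60974 in BOR libraries, against 25120 and 37453 in untreated libraries. RPL29, of the same subunit, had 20962 and 53262 in BOR libraries, against 20845 and 33098 in untreated libraries. In both genes BOR 2 was above both untreated libraries, while BOR 1 was below both for RPL19 and between them for RPL29.

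RPL39, also of the large subunit, had 6148 and 18917 in BOR libraries, against 7285 and 8882 in untreated libraries. RPL41 had 12181 and 38621 in BOR libraries, against 13461 and 18531 in untreated libraries. In both, BOR 1 was below both untreated libraries and BOR 2 above both. The log2 changes of RPL19, RPL29, RPL39 and RPL41 for BOR were 0.32, 0.35, 0.42 and 0.46, with SE of 0.63 to 0.67, and their positive sign came from BOR 2. For VEM+BOR their log2 changes were -0.29, -0.32, -0.24 and -0.26, with SE of 0.44 to 0.62. RPS18, a small subunit protein, had 18927 and 58730 in BOR libraries, against 21814 and 29624 in untreated libraries, with BOR 1 below both and BOR 2 above both. It had log2 changes of 0.39 for BOR (SE 0.67), -0.23 for VEM (SE 0.59) and -0.38 for VEM+BOR (SE 0.58). None of these changes was larger than its SE.

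The core genes of the 2 subunits had nearly the same median changes. Large subunit members had median log2 changes of 0.37 for BOR, -0.21 for VEM and -0.33 for VEM+BOR. Small subunit members had 0.38 for BOR, -0.22 for VEM and -0.32 for VEM+BOR. Stalk members had 0.35 for BOR, -0.13 for VEM and -0.34 for VEM+BOR. The 7 paralogs spread more, with medians of 0.08 for BOR, -0.22 for VEM and -0.23 for VEM+BOR, and with RPL3L lowest in each. In BOR 1 alone the medians were -0.33 for the large subunit, -0.36 for the small subunit, -0.42 for the stalk and -0.20 for the paralogs. In BOR 2 alone they were 1.12 for the large subunit, 1.12 for the small subunit, 1.12 for the stalk and 0.30 for the paralogs.

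How the members stood to each other was described by taking from each log2 change the median of the 84 in that library. The standard deviation of these relative changes was 0.16 in BOR 1, 0.48 in BOR 2, 0.12 in VEM and 0.16 in VEM+BOR, and 0.17 between the untreated libraries. Members more than 0.5 from the median numbered 2 in BOR 1, 11 in BOR 2, 0 in VEM, 2 in VEM+BOR and 1 between the untreated libraries. The spread in VEM and VEM+BOR was thus no larger than that between the untreated libraries, and in BOR 2 it was larger. These measures are unlike. Each treated library was set against a mean of 2 libraries, and the untreated libraries against each other, which spreads more at equal noise. Small differences between them therefore decide nothing.

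In BOR 2, relative log2 changes were lowest for RPL3L (-1.97), RPL36A (-1.82), RPS10 (-1.55), RPL36AL (-1.50), RPL7 (-1.29) and RPS27L (-1.07). The highest were those of RPS29 (0.58) and RPS9 (0.51), both of the small subunit. RPL7, a large subunit protein, had values of 18700 and 18439 in BOR libraries, against 17434 and 28297 in untreated libraries. RPL3 had 26504 and 81949 in BOR libraries, against 31387 and 42211 in untreated libraries. RPL7 in BOR 2 thus lay between the untreated libraries, where RPL3 lay above both. RPL7L1 was relatively high in BOR 1 (0.57) and VEM+BOR (0.54) and low in BOR 2 (-0.71).

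**Figure D4:**
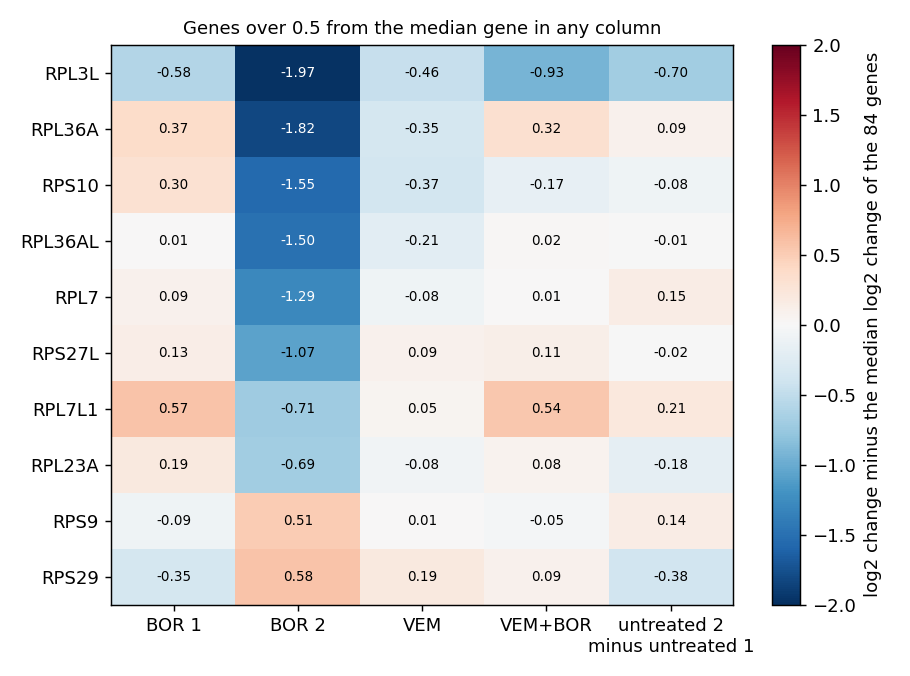
Rows are 10 of the genes that lay more than 0.5 from the median of the 84 in any column, columns are the libraries and the untreated pair, and colour and figures give the log2 change minus that median. Beside RPL3L, 7 of the genes shown lie below -0.5 in BOR 2, from -1.82 for RPL36A to -0.69 for RPL23A, and RPS9 and RPS29 lie above 0.5 there.

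The paralogs were set beside their parent genes in CPM. RPL36AL had 171 and 100 CPM in BOR libraries, 165 CPM in VEM and 169 CPM in VEM+BOR, against 190 and 237 CPM in untreated libraries. Its parent RPL36A had 16.8 and 6.16 CPM in BOR libraries, 11.5 CPM in VEM and 16.1 CPM in VEM+BOR, against 14.1 and 19.0 CPM in untreated libraries. The annotated paralog was thus above its parent in every library. RPL36A shares 67.3% of its coding bases with RPL36A-HNRNPH2, so its own level is uncertain.

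RPS27L, a p53 target and paralog of RPS27, had 45.3 and 33.0 CPM in BOR libraries, 49.4 CPM in VEM and 44.0 CPM in VEM+BOR, against 46.4 and 58.0 CPM in untreated libraries. RPS27 had 985 and 2382 CPM in BOR libraries, 1299 CPM in VEM and 1165 CPM in VEM+BOR, against 1355 and 1258 CPM in untreated libraries. BOR 2 was the lowest library for RPS27L and the highest for RPS27. RPL22L1 had 149 and 217 CPM in BOR libraries, 122 CPM in VEM and 133 CPM in VEM+BOR, against 138 and 181 CPM in untreated libraries, and its parent RPL22 stayed within 128 to 154 CPM over the 6 libraries.

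RPL39L had 27.5 and 33.3 CPM in BOR libraries, 42.4 CPM in VEM and 29.7 CPM in VEM+BOR, against 34.2 and 36.0 CPM in untreated libraries. RPL26L1 had 49.96 and 60.9 CPM in BOR libraries, 47.2 CPM in VEM and 48.3 CPM in VEM+BOR, against 44.4 and 62.3 CPM in untreated libraries. Paralogs and parents share sequence, so the counting could have split their reads, and their ratios are uncertain.

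Levels per length were compared as the untreated mean in CPM per kilobase of coding sequence. RPL41, the shortest ribosomal protein, was highest at 13274, followed by RPS27 at 5184, RPL37A at 5088 and RPL8 at 4280. The 69 core members with at most 50% of their coding bases shared with other annotated genes ranged from 545 to 13274, with a median of 2241. The 8 core members with more than 50% shared ranged from 5.13 to 1894, with a median of 97.4. They included RPL17, RPL22, RPL36A, RPS10 and RPS23. RPL17 shared 98.2% with the readthrough gene RPL17-C18orf32 and RPS10 shared 56.9% with RPS10-NUDT3. RPS10 was the lowest core member at 5.13 CPM per kilobase, with 44 and 21 reads in BOR libraries, 30 in VEM and 32 in VEM+BOR, against 40 and 50 in untreated libraries. Values of these 8 genes are uncertain as levels of the whole gene.

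**Figure D5:**
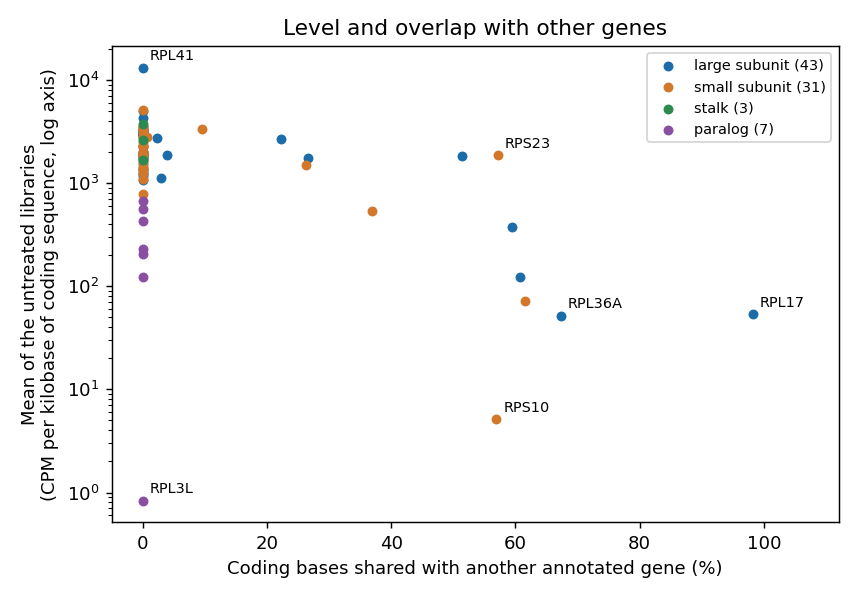
Each point is 1 of the 84 genes, with the percentage of its coding bases shared with another annotated gene across and its untreated mean in CPM per kilobase of coding sequence upward on a log axis. RPL17, RPL36A and RPS10 combine over 50% shared bases with low levels, RPS23 lies within the range of the core members without overlap, and RPL3L is low with none shared.

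The files also listed 304 of the 1144 pseudogene copies annotated for these genes, and their reads amounted to 3.15% to 3.33% of the members' reads in each library. This share was even across libraries. RPL23A had the most annotated copies, at 91.

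Members with and without a pyrimidine run near the start did not stand apart by more than their own ranges. In BOR 2 the 52 members with a run had a median log2 change of 1.10 (range -0.81 to 1.52) and the 15 without had 0.97 (range -0.05 to 1.59). In VEM+BOR the medians were -0.32 (range -0.64 to 0.00) with a run and -0.21 (range -0.41 to 0.22) without. In VEM both medians were -0.20. The 2 untreated libraries differed by medians of 0.47 with a run and 0.59 without.

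Coding length went with the difference between the untreated libraries. Over the 69 core members without large overlap, the relative log2 difference of untreated 2 minus untreated 1 had a median of -0.24 in the 9 members with a coding length under 300 bases and of 0.00 in the 22 with 600 bases or more. The correlation with coding length across these genes, which share libraries and are not independent, was r = 0.18 in BOR 1, -0.16 in BOR 2, -0.31 in VEM and -0.41 in VEM+BOR, and 0.30 between the untreated libraries. Each treated library was set against the mean of the same 2 untreated libraries, so all these correlations share the untreated libraries. How much of each correlation came from the untreated libraries was not tested. The correlations of the treated libraries are therefore not separate from that of the untreated pair. RPS27 and RPS29, both short, were among the members that differed least between the untreated libraries.

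Other genes of the pathway gave 0 calls by limma in every comparison, and at an unadjusted p under 0.05 the 4 lists held 0 genes in the BOR comparison. They held 1 regulator each in the VEM and VEM+BOR comparisons and 2 regulators in that of the VEM-containing libraries, beside the shares of all genes given above. The 19 other TOP or ribosome-associated genes, among them elongation factors, had median log2 changes of 0.31 for BOR, -0.17 for VEM and -0.28 for VEM+BOR, near those of the members. EEF2, the translocation factor of elongation, had 35696 and 136214 in BOR libraries, against 45599 and 46315 in untreated libraries (log2 change 0.60, SE 0.74). EEF1A1, which delivers tRNA to the ribosome, had 94156 in VEM+BOR, against 119726 and 166483 in untreated libraries (log2 change -0.58, SE 0.95). The 15 regulators had medians of 0.17 for BOR, 0.11 for VEM and 0.18 for VEM+BOR. Their largest changes were those of CDKN1A, the cell cycle inhibitor p21 and a p53 target. CDKN1A had 629 and 9150 in BOR libraries, against 827 and 345 in untreated libraries, so BOR 1 lay between the untreated libraries and BOR 2 above both (log2 change 2.17, SE 1.23, limma adjusted p = 0.968). It had 1336 in VEM, against 927 and 386 in untreated libraries (log2 change 1.16, SE 0.45, limma adjusted p = 1). It had 1291 in VEM+BOR, against 931 and 387 in untreated libraries (log2 change 1.10, SE 0.44, limma adjusted p = 1). Unlike 83 of the 84 ribosomal protein genes, CDKN1A was lower in untreated 2 than in untreated 1. EIF4EBP1, a translation repressor that mTORC1 phosphorylates, had 6952 in VEM, against 3667 and 5356 in untreated libraries (log2 change 0.65, SE 0.42).

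The 13 chaperone and assembly genes had median log2 changes of 0.02 for BOR, -0.33 for VEM and 0.01 for VEM+BOR. LTV1, a small subunit assembly factor, had 258 in VEM, against 298 and 696 in untreated libraries (log2 change -0.82, SE 0.48). Mitochondrial ribosomal protein genes had medians of 0.26 for BOR over 78 genes, and of -0.14 for VEM and -0.05 for VEM+BOR over 77 genes. In the BOR table all 78 of them and all 13 chaperone and assembly genes were higher in untreated 2 than in untreated 1, by medians of 0.66 and 0.72, so the difference within the untreated pair was not limited to the cytosolic ribosomal proteins. In BOR 1 alone the medians of the 4 lists were -0.24 for TOP genes, 0.22 for regulators, 0.05 for chaperones and -0.12 for mitochondrial ribosomal proteins. In BOR 2 alone they were 0.72 for TOP genes, 0.16 for regulators, 0.08 for chaperones and 0.63 for mitochondrial ribosomal proteins.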

How the data were processed

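RNA was measured in 6 SKM-1 libraries, grouped by their treatment. Replicate numbers only follow the order of accession, so they pair nothing. The authors deposited 3 tables, each setting 1 treatment against the untreated libraries, with a normalised signal per gene (read counts divided by a library factor), log2 fold changes, p-values and gene lengths. The submitters' processing notes name edgeR 3.22.5, DESeq2 1.20.0, featureCounts 1.5.0-p3, HISAT2 2.0.5 and CASAVA without their roles. The sources used here do not give the authors' build, and coordinates equal GENCODE release 29 for all 84 members. The protocol names no step that marks strand, so reads of overlapping antisense genes cannot be told apart.

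Values were whole multiples of each column's step within 0.001 (100% of values), which gave the reads. VEM entered no count test because its step, 0.991, was judged too near 1 for a check. The step of VEM+BOR was similar at 0.984, and VEM+BOR was entered. Because the signal was normalised, genes were tested with limma 3.58.1 under R 4.3.3 on log2(value + 1), fitted with a trend of variance on mean, within 1 table, for genes with a mean of at least 10, two-sided, with Benjamini-Hochberg adjustment over all genes tested and a threshold of 0.05. This scale understates changes of low genes. The mean was taken over the treated and untreated libraries together, and every member passed the filter in every comparison. RPL3L was under 10 in BOR 1, BOR 2 and VEM+BOR. In the comparisons that hold these libraries it passed through the untreated libraries, where it was higher. In the fits within 1 table, VEM and VEM+BOR, with 1 library each, were assumed to vary like the untreated pair. For the VEM-containing libraries as 1 group, and for values on 1 scale, libraries were scaled by median-of-ratios factors over 23519 genes found in all tables. CPM are values scaled to the library total. Coding length was that of the principal transcript. Sequences are from RefSeq. edgeR 4.0.16 and DESeq2 1.42.0 were alternatives. The test was tried on simulated data.

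Members and gene lists were chosen with earlier results of these data known. Named members were any past the threshold, in each comparison up to 5 highest and 5 lowest among those with no overlap between groups, the 10 with the highest level per kilobase, and a fixed set of disease genes, stalk genes and paralogs. Of other lists, up to 4 genes with the largest change could be named. RPL6, RPL7, RPL17, RPL23A, RPL37A, RPS9, RPS15A, RPS23, RPS28 and RPS29 fall outside that rule and were named after their values were seen. Some genes that the rule or the lists take in are not reported here.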

Additional observations from a re-analysis of the deposited data

How the results depend on the processing

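Alternatives were pseudocounts of 0.5 and 5, no filter on low values, scaling to library totals, scaling to the median ribosomal protein gene (chosen after seeing the data), 1 fit to all 6 libraries, edgeR, DESeq2, and leaving out each library. Of 76 alternative values, 4 moved by more than the replicate spread (for medians, the SD between the untreated libraries) or from 0 to some members called, and 72 did not. Medians among the 72 still shifted when an untreated library was left out or, for BOR, under library totals. Leaving out an untreated library shifts a gene's untreated mean by less than the SD between the pair. Those medians could therefore hardly count as moved. Of 40 alternative counts of members called, 38 stayed at 0. With an untreated library left out, the fits for VEM and VEM+BOR took their spread from BOR 1 and BOR 2 alone. Those libraries differed widely. The fits for VEM-containing libraries then took their spread from VEM against VEM+BOR, which are different treatments. The counts of members called in all these fits decide nothing. Medians were also taken with each library left out in turn. The median log2 change of members then ranged from -0.34 (without BOR 2) to 1.10 (without BOR 1) for BOR, from -0.47 to 0.05 for VEM, whose sign turned without untreated 2, from -0.58 to -0.06 for VEM+BOR and from -0.52 to -0.0004 for VEM-containing libraries. Scaling to library totals moved the median of all genes for BOR to -0.26 and that of the members to 0.08. Scaling shifts every gene of a library alike, so the distance of members from all genes, 0.34, could hardly change. That distance averages members at -0.34 in BOR 1 and at 1.10 in BOR 2, against 0.05 for all genes in each. The BOR share of reads against untreated was 1.07 times of nuclear protein-coding reads and 1.08 times without the 10 most abundant members, and for VEM+BOR 0.769 and 0.788 times. edgeR and DESeq2 were not run for VEM. No paired analysis was possible because replicate numbers are only names given in order of accession. Depth limits RPL3L and RPS10, the members with the fewest reads.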
